A study of Mus musculus with 9 samples.

Results

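The solute carriers are the membrane proteins that move amino acids, sugars, metals, ions, nucleotides and vitamins into, out of and within the cell. Their genes were described here in blood-forming stem and progenitor cells from mouse bone marrow. Members were the rows of the deposited table whose symbol starts with Slc and a digit and whose value was at least 10 in 3 or more of the 9 libraries. Of 227 such rows, 209 passed this filter, among 13018 genes that passed it and 14940 genes in the table. The members were grouped by substrate into amino acids (30 genes), sugars (14), metals (24), ions (30), mitochondrial carriers (38), nucleotides and nucleotide sugars (28), and organic acids, amines, lipids and vitamins (40). The other 5 carry a carrier's symbol without being transporters themselves, such as the scaffold genes Slc9a3r1 and Slc9a3r2.

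RNA came from LSK cells sorted from C57BL/6 mice. These cells lack lineage markers, carry Sca1 and cKit, and include the stem cells and early progenitors. There were 3 groups of 3 mice. One group was naive. The second was immunized 3 days earlier with complete Freund's adjuvant and the peptide MOG35-55 of myelin oligodendrocyte glycoprotein, which induces experimental autoimmune encephalomyelitis (EAE). The third was immunized in the same way and given SR59230A, an antagonist of the β3-adrenergic receptor, for 3 days. No group given adjuvant alone is among these samples and the labels name no vehicle, so the effect of the peptide cannot be told apart from that of the adjuvant, nor that of the antagonist from its vehicle. All values below are scaled values, the deposited number divided by a factor for its library, and they are adjusted scores, not read counts.

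Amino acid carriers often work in pairs of chains or in exchange cycles: the light chain Slc7a5 brings in large neutral amino acids only when joined to the heavy chain Slc3a2. Lactate and pyruvate cross the membrane through Slc16 carriers, which need a partner protein such as Bsg or Emb to reach the surface. Iron enters the cell by the transferrin receptor, leaves the endosome through Slc11a2, enters the mitochondrion through Slc25a37 for heme synthesis, and leaves the cell through Slc40a1. Blood stem cells are kept in a slowly cycling state, and their progeny take up more nutrients once they divide and mature.

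The promoters of 4 of the risen carriers are shown first, because each holds a short motif of a factor that is known to act on nutrient genes. TGATGNAA is the composite element bound by ATF4, the factor of the amino acid response, and CACGTG is the E-box bound by MYC and its relatives. The windows run from 250 bases before to 50 bases after the gene start of RefSeq (GRCm38.p6), so each covers upstream sequence and the first transcribed bases, and capitals mark the motif on either strand. They lie at chr3:50443564-50443863 on the minus strand (Slc7a11), chr2:129198523-129198822 on the plus strand (Slc20a1), chr3:104638414-104638713 on the plus strand (Slc16a1) and chr11:54028055-54028354 on the minus strand (Slc22a4).
Slc7a11: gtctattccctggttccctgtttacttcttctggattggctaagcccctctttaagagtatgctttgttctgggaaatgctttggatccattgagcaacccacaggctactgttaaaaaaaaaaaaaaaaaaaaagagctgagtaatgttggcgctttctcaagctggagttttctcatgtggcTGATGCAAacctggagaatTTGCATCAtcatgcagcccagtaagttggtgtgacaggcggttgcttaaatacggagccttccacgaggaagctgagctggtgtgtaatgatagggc
Slc20a1: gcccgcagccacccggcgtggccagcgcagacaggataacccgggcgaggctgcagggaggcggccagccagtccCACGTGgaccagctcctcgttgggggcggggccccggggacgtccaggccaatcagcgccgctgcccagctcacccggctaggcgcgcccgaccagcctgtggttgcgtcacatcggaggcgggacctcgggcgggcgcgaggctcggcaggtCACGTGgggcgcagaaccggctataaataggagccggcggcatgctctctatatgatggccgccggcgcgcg
Slc16a1: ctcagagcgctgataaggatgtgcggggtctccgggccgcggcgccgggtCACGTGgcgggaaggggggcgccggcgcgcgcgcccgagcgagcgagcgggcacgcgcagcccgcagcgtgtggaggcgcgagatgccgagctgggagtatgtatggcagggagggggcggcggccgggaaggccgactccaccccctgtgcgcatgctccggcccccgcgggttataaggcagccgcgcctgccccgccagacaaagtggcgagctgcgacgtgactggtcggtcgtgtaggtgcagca
Slc22a4: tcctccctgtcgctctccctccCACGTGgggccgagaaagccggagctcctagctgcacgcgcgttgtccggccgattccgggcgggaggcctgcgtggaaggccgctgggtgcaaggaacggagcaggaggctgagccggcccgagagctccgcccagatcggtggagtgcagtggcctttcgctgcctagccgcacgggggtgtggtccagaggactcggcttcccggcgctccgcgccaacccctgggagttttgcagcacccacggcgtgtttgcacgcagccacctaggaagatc

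The Slc7a11 window held 2 matches to TGATGNAA, beginning 66 and 47 bases before the start and facing each other. The Slc20a1 window held CACGTG at 175 and 22 bases before the start, the Slc16a1 window at 200 and the Slc22a4 window at 228. None of these matches overlapped a match to another motif. Over all 32851 windows, 3.97% held TGATGNAA and 7.15% held CACGTG, against 3.4% and 13.6% of the 206 windows of the 156 members that matched a window. Among the 34 windows of 23 carriers that rose in EAE, 1 held TGATGNAA and 7 (20.6%) held CACGTG, and among the 9 windows of 8 that fell, 1 and 0 did. GGGCGG, the GC box, stood in 69.4% of the members' windows, in 55.9% of the windows of risen carriers and in 35.7% of all windows. The motifs were chosen after the values had been seen, and a match describes these letters only.

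The 9 libraries summed to between 8641735 and 10387955 in deposited values, and 189 members were at 10 or more in every library. EAE replicate 2 stood apart on the third principal component over all genes (-36.04, beside -5.59 to 22.5 for the other libraries). Markers of maturing myeloid cells moved with the groups. The summed scaled values of 9 granulocyte-monocyte progenitor markers, all 9 of which rose, ran from 2213 to 2830 in naive mice, 14600 to 21510 in EAE and 14560 to 15660 in treated EAE. The sum of 8 stem cell markers, 7 of which fell, ran from 8708 to 10140, 4002 to 4288 and 3998 to 4735. Of the 12 mature neutrophil markers 3 rose and none fell, with sums of 3021 to 7324, 4705 to 18030 and 8657 to 18500. Of the 7 tested monocyte and macrophage markers 3 rose, and the sums of the 8 in the table ran from 145.0 to 304.3, 1577 to 1791 and 1358 to 1601. Of the 8 tested erythroid markers 3 fell and 1 rose, and the 9 in the table had sums of 9469 to 10390, 4556 to 4871 and 5703 to 6159. The other lists are given in the same way, with calls among the markers tested in EAE against naive mice and sums over those in the table. Of the megakaryocyte and platelet markers 2 of 7 rose (Selp 6.52-fold, Itga2b 1.49-fold) and none fell. Their sums were 1208 to 1270, 2222 to 2678 and 2059 to 2384, and Selp alone had means of 153.9, 1003 and 834.9. In EAE 3 of the 7 were higher and 4 lower, with a median log2 difference of -0.516. The 4 lower ones, none of them called, were Ppbp (-1.232), Gp1bb (-1.054), Gp9 (-0.545) and Pf4 (-0.516). Of the T and NK cell markers 2 of 4 rose (Klrb1c 2.78-fold, Nkg7 1.45-fold), with sums of 762.3 to 864.0, 1011 to 1203 and 1061 to 1109, while Cd3g and Cd8a had deposited values of at most 8. Of the mast cell and basophil markers 3 of 6 rose (Mcpt8 6.17-fold, Hdc 3.87-fold, Ms4a2 2.93-fold), with sums of 2383 to 2835, 2263 to 3195 and 2439 to 2704, and Fcer1a was at most at 7. Of the B cell markers 2 of 5 fell (Pax5 and Igll1), with sums of 949.6 to 1254, 776.6 to 927.3 and 965.3 to 1055. Of the endothelial and stromal markers 3 of 6 fell (Cdh5, Sele and Emcn), with sums of 2643 to 3540, 2662 to 3632 and 3309 to 3821, and Cxcl12 was at most at 9. Of the genes of the sort gate, Ly6a, which encodes Sca1, rose by 0.46 ± 0.12 on the log2 scale (adjusted p = 0.0226) and Kit fell by 0.43 ± 0.09 (adjusted p = 0.0115). The Ly6a call was lost with no scaling (0.0758) and without naive replicate 1 (0.0624, range 0.00752 to 0.0758 over the other scalings, pseudocounts, filters, models and left-out libraries). The part of these markers and gate genes in the results below was not tested, and in bulk RNA fewer cells of a type and less RNA per cell cannot be told apart.

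In EAE against naive mice, 38 of the 209 members changed at an adjusted p under 0.05 (limma-trend over all 13018 genes, 2-sided, Benjamini-Hochberg), 27 rising and 11 falling. That is 18.2% of the members, beside 14.2% of all genes tested, of which 9.13% rose and 5.1% fell. An unadjusted p under 0.05 was found for 62 members, beside 28.8% of all genes. The naive and EAE libraries did not overlap for 80 members (38.3%, beside 39.4% of all genes), 47 of them higher and 33 lower in EAE (21% and 18.4% of all genes). The median log2 difference of the members was 0.045, beside -0.003 for all genes, and 6 members rose and 5 fell by 2-fold or more. The largest rises were those of Slc22a4, Slc7a11, Slc4a8, Slc16a12, Slc9a2 and Slc2a6, which belong to 4 of the substrate classes. Without EAE replicate 2 there were also 38 calls, 26 rises and 12 falls, 34 of them shared. With upper-quartile scaling the members' median was -0.03, and 20 rose and 13 fell. The share of calls that were rises was 60.6% with that scaling and 61.5% with no scaling, against 71.1% here. A model that also held the log2 share of chemosensory receptor genes, which ran from 0.151% to 0.181% of all values in naive mice and from 0.107% to 0.121% in EAE, left 2 of the 38 calls, Slc22a4 and Slc19a1, and 113 calls over all genes. That model was added after the data had been seen, and because the shares of the groups do not overlap it also removes differences between the groups.

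**Figure D1:**
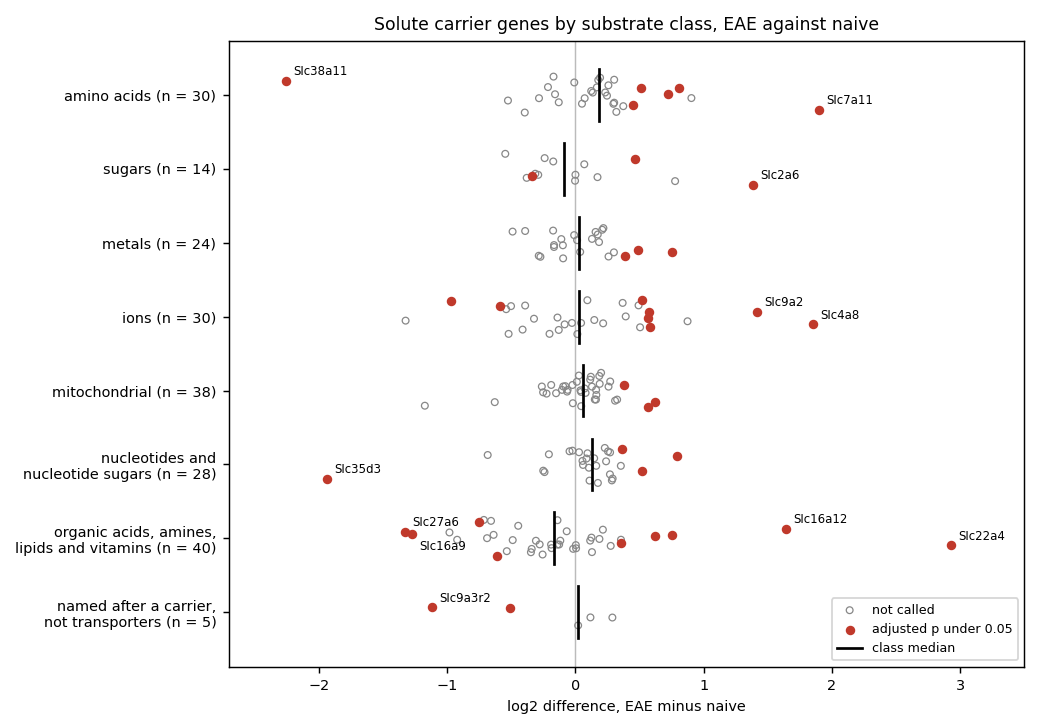
Log2 difference between EAE and naive mice (horizontal axis) for each of the 209 solute carrier genes, one row for each substrate class with its number of genes. Filled points have an adjusted p under 0.05, open points do not, and the black bar is the class median, which lies between -0.164 (organic acids, amines, lipids and vitamins) and 0.185 (amino acids). Vertical scatter within a row has no meaning.

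Amino acid carriers gave 5 rises and 1 fall among 30 genes (20%, beside 14.2% of all genes), with a median log2 difference of 0.185. Slc7a5, the light chain of the large neutral amino acid exchanger, read 1298, 1429 and 1395 in the naive libraries, 2255, 2581 and 1965 in EAE and 2175, 2209 and 2227 in treated EAE. Every naive library was below every immunized one, and Slc7a5 rose by 0.72 ± 0.11 (log2 ± SE, adjusted p = 0.00154), or 1.65-fold. Its heavy chain Slc3a2 read 1062, 1463 and 758 in naive mice and 1028, 1463 and 1448 in EAE, groups that overlap, with a difference of 0.30 ± 0.22 (adjusted p = 0.411). Slc7a1, which takes in arginine and lysine, rose from 519, 637 and 536 to 801, 823 and 772 (0.51 ± 0.10, adjusted p = 0.0081). Slc7a6, another light chain of a Slc3a2 exchanger, rose by 0.45 ± 0.11 (adjusted p = 0.018). It was named after its values were seen, and its neighbour Slc7a6os lies on the opposite strand, so that reads of the 2 genes may not be separable, since the sources used here do not say that counting used the strand.

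Slc7a11, which imports cystine in exchange for glutamate, was low in every library. It read 5.07, 4.74 and 1.88 in naive mice, 8.13, 27.6 and 18.8 in EAE and 11.2, 8.15 and 14.4 in treated EAE. The naive and EAE libraries did not overlap, although the lowest EAE library was near the highest naive one, and Slc7a11 rose by 1.90 ± 0.57 (adjusted p = 0.0454), 4.67-fold. Slc7a11 reached a deposited value of 10 in 2 EAE and 2 treated libraries and in 0 naive ones. It passed the filter only through groups where it was high, which favours a rise, so it is no support for a change of the class. Slc6a9, a glycine transporter, rose from 39.5, 39.8 and 46.0 to 82.2, 69.6 and 68.8 (0.80 ± 0.24, adjusted p = 0.0468). Both calls were near the threshold. For Slc7a11, leaving out naive replicate 1 (adjusted p = 0.051) or 3 (0.0728), or EAE replicate 2 (0.0952) or 3 (0.0623), ended the call, as did upper-quartile scaling (0.0537). The range was 0.0122 to 0.0952 over the other scalings, pseudocounts, filters, models and left-out libraries, and the ranges below are over the same settings. The Slc6a9 call was lost without naive replicate 1 or 2 or EAE replicate 1 or 2 (0.0909, 0.0572, 0.0753 and 0.0501), with both other scalings (0.113 and 0.0717) and with no filter (0.0528), within a range of 0.011 to 0.113, and the Slc7a6 call with no scaling (0.0934, range 0.00213 to 0.0934).

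Slc38a11, a member of the family of sodium-coupled neutral amino acid transporters, was the amino acid carrier that fell. Its values were 21.3, 35.1 and 11.3 in naive mice, 2.71, 3.07 and 5.21 in EAE and 6.10, 6.11 and 5.55 in treated EAE. All naive libraries were above all others, and the fall was -2.26 ± 0.54 on the log2 scale (adjusted p = 0.0171), 6.15-fold. Slc38a11 was the 1 member that passed the filter through the naive group alone, so it had to be lower elsewhere, and it is no support for a change of the class. The glutamine transporter Slc1a5 was 0.18 ± 0.09 higher (adjusted p = 0.241), and the neutral amino acid importers Slc38a1 and Slc38a2 differed by -0.01 ± 0.09 and 0.12 ± 0.13 (adjusted p = 0.961 and 0.566). Slc1a5, Slc38a1 and Slc38a2 did not pass the test. Slc36a2, a proton-coupled carrier of small amino acids, was just below the filter, with deposited values of 0 in all 3 naive libraries, 9, 13 and 10 in EAE and 5, 6 and 9 in treated EAE. It was singled out after its values were seen and was not tested.

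Sugar carriers gave 2 rises and 1 fall among 14 genes (21.4%, beside 14.2% of all genes), with a median of -0.088. Slc2a6, a hexose transporter of lysosomal membranes, read 30.4, 16.1 and 40.4 in naive mice, 72.2, 74.7 and 69.8 in EAE, and 101, 92.7 and 101 in treated EAE. The 3 groups lay in that order without overlap, and the rise in EAE was 1.39 ± 0.30 (adjusted p = 0.0104), 2.49-fold. Slc37a4, which carries glucose 6-phosphate into the endoplasmic reticulum, rose from 348, 314 and 349 to 437, 514 and 443 (0.46 ± 0.11, adjusted p = 0.0202). Slc50a1, a sugar efflux protein, fell by 0.34 ± 0.09 (adjusted p = 0.0327), from 717, 661 and 728 to 568, 563 and 533. The main glucose importers did not pass the test. Slc2a1 differed by 0.07 ± 0.20 (adjusted p = 0.853), with naive libraries at 197, 277 and 183 and EAE libraries at 230, 262 and 191. Slc2a3 was at 1521, 1611 and 1324 in naive mice and 1084, 1269 and 1297 in EAE, lower without overlap, by -0.29 ± 0.12 (adjusted p = 0.133). The Slc50a1 call was lost without naive replicate 1 or 3 (0.0661 and 0.0524) and with no scaling (0.107, range 0.00322 to 0.107), and the Slc37a4 call with no scaling (0.0717, range 0.00326 to 0.0717).

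**Figure D2:**
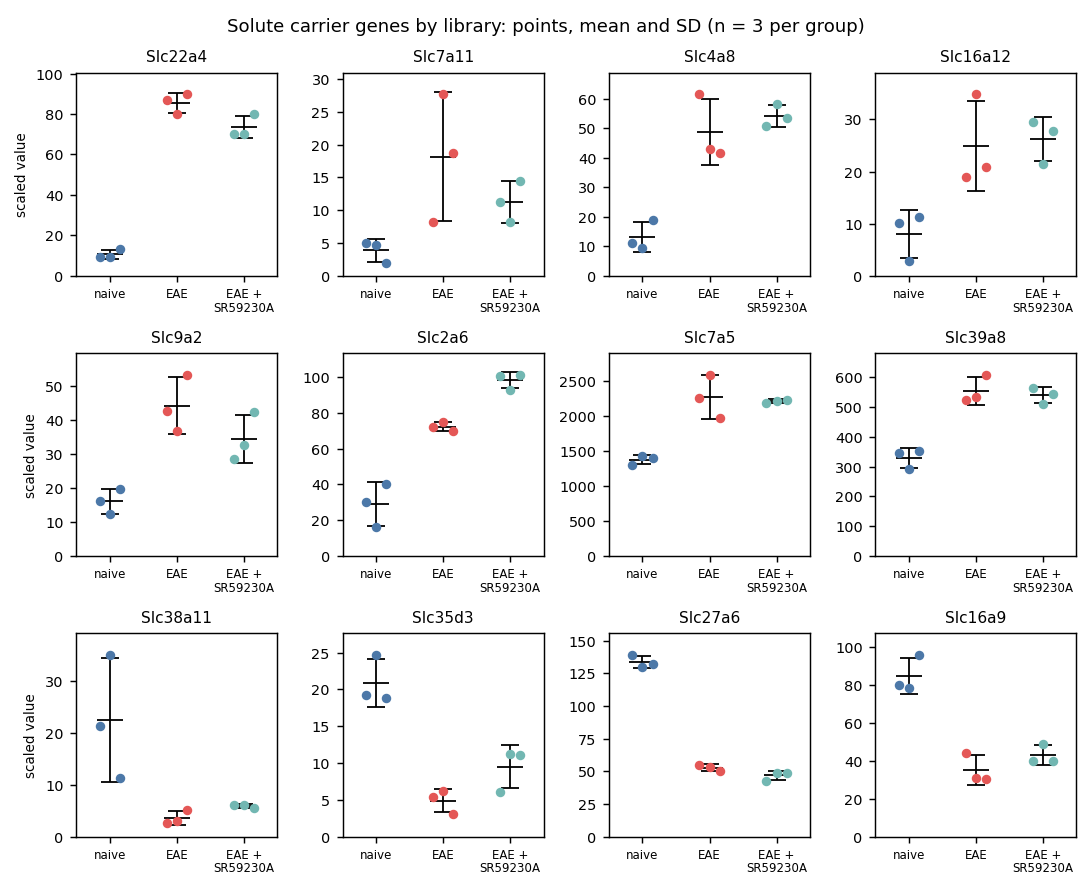
Scaled values (vertical axis, linear from 0, a separate scale in each panel) of 12 solute carrier genes in the naive, EAE and SR59230A-treated EAE groups. Points are libraries, and the bars are the mean and SD of 3 libraries. Slc22a4 lies between 9.12 and 13.2 in naive mice and between 79.8 and 89.6 in EAE, while Slc7a11 spreads from 8.13 to 27.6 in EAE.

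Among 24 metal carriers 3 rose and none fell in EAE (12.5%, beside 14.2% of all genes). Slc39a8, an importer of zinc and manganese, was at 344, 292 and 353 in naive mice, 521, 531 and 607 in EAE and 561, 510 and 543 in treated EAE. Both immunized groups were above every naive library, and the rise in EAE was 0.75 ± 0.12 (adjusted p = 0.00186), 1.68-fold. Slc31a1, the copper importer, rose by 0.49 ± 0.13 (adjusted p = 0.0316), and Slc30a5, which moves zinc into the secretory pathway, by 0.38 ± 0.10 (adjusted p = 0.0257). Both of these calls were less firm. That of Slc31a1 was lost without naive replicate 1, EAE replicate 1 or EAE replicate 2 (0.0888, 0.0616 and 0.0617) and with both other scalings (0.133 and 0.0608, range 0.00584 to 0.133). That of Slc30a5 was lost without naive replicate 1 (0.0563) and with both other scalings (0.115 and 0.0608, range 0.00339 to 0.115).

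The iron carriers of the cell surface and the endosome did not pass the test in EAE. Slc40a1, the iron exporter, read 14.2, 14.2 and 22.5 in naive mice and 19.0, 9.21 and 20.9 in EAE (-0.10 ± 0.46, adjusted p = 0.912). The endosomal iron transporter Slc11a2 differed by 0.30 ± 0.12 (adjusted p = 0.132), and Slc11a1, the metal transporter of phagosomes in macrophages, by 0.01 ± 0.35 (adjusted p = 0.985). Slc39a14, an importer of zinc and iron, differed by -0.17 ± 0.19 (adjusted p = 0.603). The zinc exporter Slc30a1 was only just over the filter, and its difference of -0.27 ± 0.68 (adjusted p = 0.825) has a wide error.

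Ion carriers gave 6 rises and 2 falls among 30 genes (26.7%, beside 14.2% of all genes). Slc4a8, a sodium-driven exchanger of chloride and bicarbonate, read 11.2, 9.48 and 18.8 in naive mice, 61.4, 43.0 and 41.7 in EAE, and 50.9, 58.1 and 53.3 in treated EAE. All naive libraries were well below all immunized ones, and the rise was 1.85 ± 0.32 (adjusted p = 0.00329), 3.71-fold. Slc9a2, an exchanger of sodium for protons, rose from 16.2, 12.3 and 19.7 to 42.4, 36.8 and 53.2 (1.42 ± 0.31, adjusted p = 0.012), 2.74-fold. Slc20a1, a phosphate importer, rose from 1798, 2180 and 1606 to 2449, 3081 and 2764 (0.58 ± 0.12, adjusted p = 0.0112). A second bicarbonate carrier, Slc4a7, rose by 0.56 ± 0.12 (adjusted p = 0.0104), and Slc8b1, the sodium-calcium exchanger of mitochondria, by 0.52 ± 0.12 (adjusted p = 0.0176); both were named after their values were seen.

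The calcium and potassium exchangers of the Slc24 family moved in opposite directions. Slc24a3 rose from 67.9, 67.3 and 75.1 to 106, 102 and 106 (0.58 ± 0.17, adjusted p = 0.0391), and Slc24a5, best known from the melanosomes of pigment cells, fell from 163, 137 and 112 to 55.1, 87.0 and 68.8 (-0.97 ± 0.24, adjusted p = 0.0187). Slc26a11, a transporter of sulfate and chloride, fell from 314, 268 and 303 to 191, 182 and 217 (-0.59 ± 0.14, adjusted p = 0.018). Without naive replicate 1 the calls of Slc24a3 (0.0688) and Slc24a5 (0.0595) were lost, and that of Slc24a3 also with no scaling (0.121) and upper-quartile scaling (0.0705). Their ranges were 0.00336 to 0.121 and 0.00553 to 0.0595. Among the well-known ion carriers that did not pass the test, the sodium-potassium-chloride cotransporter Slc12a2 differed by -0.20 ± 0.12 (adjusted p = 0.288). Slc4a1, the anion exchanger of red cells, differed by -0.52 ± 0.42 (adjusted p = 0.449), with EAE libraries at 45.1, 48.1 and 14.6.

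The mitochondrial class was the Slc25 family, most of which sits in the inner mitochondrial membrane, although Slc25a17 is a carrier of peroxisomes. It gave 3 rises and no fall among 38 genes (7.89%, beside 14.2% of all genes), with a median of 0.059. Slc25a37, which brings iron into the mitochondrion, rose from 276, 339 and 245 to 378, 452 and 483 (0.62 ± 0.14, adjusted p = 0.0161), 1.53-fold. Slc25a30, an uncoupling protein relative, rose from 691, 724 and 689 to 972, 1113 and 1026 (0.56 ± 0.10, adjusted p = 0.00396). Slc25a4, an exchanger of ADP for ATP, rose by 0.38 ± 0.09 (adjusted p = 0.0179), a call lost with no scaling (0.125, range 0.00227 to 0.125). Other carriers of the heme pathway did not pass the test: the glycine carrier Slc25a38 was higher by 0.27 ± 0.12 without overlap (adjusted p = 0.143), and the glutathione carrier Slc25a39 differed by 0.16 ± 0.13 (adjusted p = 0.448). The citrate carrier Slc25a1 differed by 0.04 ± 0.11 (adjusted p = 0.852).

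Carriers of nucleosides, nucleotide sugars and acetyl-CoA gave 3 rises and 1 fall among 28 genes (14.3%, beside 14.2% of all genes). Slc35b1, which exchanges ATP for ADP across the membrane of the endoplasmic reticulum, rose from 184, 244 and 226 to 414, 393 and 324 (0.79 ± 0.16, adjusted p = 0.00773), 1.73-fold. The acetyl-CoA carrier Slc33a1 rose by 0.52 ± 0.12 (adjusted p = 0.0142) and the sodium-coupled nucleoside importer Slc28a2 by 0.36 ± 0.09 (adjusted p = 0.0161). Slc35d3, an orphan of the nucleotide sugar family that is needed for dense granules in platelets, read 19.3, 24.6 and 18.8 in naive mice, 5.42, 6.14 and 3.13 in EAE and 6.10, 11.2 and 11.1 in treated EAE. All immunized libraries were below all naive ones, and the fall in EAE was -1.93 ± 0.46 (adjusted p = 0.0174), 4.27-fold. With no scaling the calls of Slc33a1 (0.0596, range 0.00112 to 0.0596) and Slc28a2 (0.119, range 0.00112 to 0.119) were lost. The nucleoside transporter Slc29a1 differed by 0.03 ± 0.15 (adjusted p = 0.923) and the CMP-sialic acid transporter Slc35a1 by 0.15 ± 0.12 (adjusted p = 0.447).

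The class of organic acids, amines, lipids and vitamins gave 5 rises and 4 falls among 40 genes (22.5%, beside 14.2% of all genes). It had the lowest median of the transporter classes (-0.164). Slc22a4, a transporter of ergothioneine and carnitine, had the largest rise of all members. It read 9.12, 9.48 and 13.2 in naive mice, 86.7, 79.8 and 89.6 in EAE, and 70.2, 70.3 and 80.0 in treated EAE. The rise in EAE was 2.93 ± 0.24 (adjusted p = 2.32e-05), 8.07-fold, and the naive libraries were far below both immunized groups. Slc22a5, a close relative that carries carnitine, read 413, 347 and 372 in naive mice and 357, 436 and 435 in EAE, groups that overlap, and did not pass the test (0.12 ± 0.13, adjusted p = 0.587).

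Of the Slc16 family, which carries lactate, pyruvate and related compounds, 2 members of this class rose and 1 fell. The lactate carrier Slc16a1 read 612, 747 and 808 in naive mice, 1447, 1109 and 1088 in EAE and 1067, 1239 and 1123 in treated EAE. Both immunized groups were above all naive libraries, with a rise in EAE of 0.75 ± 0.14 (adjusted p = 0.00498), 1.68-fold. Slc16a12, a creatine carrier, rose from 10.1, 2.84 and 11.3 to 19.0, 34.8 and 20.9 (1.64 ± 0.49, adjusted p = 0.0447), 3.08-fold. This call was near the threshold and was lost without naive replicate 2 (0.0538) or EAE replicate 2 (0.103), with no scaling (0.0527), upper-quartile scaling (0.0564) and a pseudocount of 0.1 (0.0506), within a range of 0.0169 to 0.103. Slc16a9 fell from 80.1, 78.7 and 95.8 to 44.2, 30.7 and 30.2 (-1.27 ± 0.24, adjusted p = 0.00613), 2.42-fold. The lactate exporter Slc16a3 differed by 0.21 ± 0.23 and did not pass the test (adjusted p = 0.573).

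Slc19a1, the reduced folate carrier, rose from 951, 853 and 1001 to 1368, 1618 and 1326 (0.62 ± 0.11, adjusted p = 0.00373), 1.54-fold. Slc44a2, a choline transporter, rose by 0.35 ± 0.09 (adjusted p = 0.02) and was named after its values were seen; both other scalings ended that call (0.126 with none and 0.0547 with the upper quartile, range 0.00169 to 0.126). The fatty acid transporter Slc27a6 read 139, 130 and 132 in naive mice, 55.1, 53.2 and 50.03 in EAE, and 42.7, 48.9 and 48.9 in treated EAE. It was lower in all 6 immunized libraries, by -1.33 ± 0.19 in EAE (adjusted p = 0.00116), 2.53-fold. Slc14a1, a urea channel, fell from 730, 602 and 633 to 363, 403 and 399 (-0.75 ± 0.12, adjusted p = 0.00188), 1.69-fold. Slc22a17, a receptor for the iron-binding protein lipocalin 2, fell by 0.61 ± 0.14 (adjusted p = 0.0125), while Lcn2, the gene of that ligand and one of the neutrophil markers above, rose by 1.98 ± 0.45 (adjusted p = 0.0137). The Lcn2 call was lost without naive replicate 2 (0.0554, range 0.0045 to 0.0554), and the pair was set side by side after the values were seen.

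Carriers of amines did not pass the test. Slc22a3, an importer of monoamines and other organic cations, differed by 0.01 ± 0.10 (adjusted p = 0.979), and Slc18a2, the vesicular monoamine transporter, by -0.02 ± 0.13 (adjusted p = 0.942). The serotonin transporter Slc6a4 was below the filter, with deposited values of 3, 10 and 2 in naive mice and 9, 6 and 13 in EAE. The lysosomal carrier Slc46a3 differed by -0.34 ± 0.39 (adjusted p = 0.602).

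Of the 5 genes that are not transporters, Slc9a3r1 and Slc9a3r2 fell. They encode scaffold proteins that hold sodium-proton exchangers and other proteins at the membrane. Slc9a3r1 fell from 539, 580 and 553 to 418, 406 and 353 (-0.51 ± 0.11, adjusted p = 0.0101), and Slc9a3r2 from 55.8, 54.0 and 67.6 to 34.3, 20.5 and 27.1 (-1.12 ± 0.29, adjusted p = 0.0237), 2.17-fold.

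Partner proteins and enzymes of the same processes were counted from lists, whose counts of rises and falls stand beside 9.13% and 5.1% of all genes. The 3 partners of the Slc16 carriers, Emb, Bsg and Nptn, all rose. Emb read 5946, 6477 and 6710 in naive mice, 10679, 9658 and 10493 in EAE and 9674, 10541 and 10719 in treated EAE, a rise in EAE of 0.69 ± 0.10 (adjusted p = 0.00162). Bsg rose by 0.42 ± 0.10 (adjusted p = 0.0167) and Nptn by 0.30 ± 0.09 (adjusted p = 0.0485). The Bsg call was lost with no scaling (0.0567, range 0.00322 to 0.0567). The Nptn call was lost with both other scalings (0.18 and 0.118), with no filter (0.0547), and without naive replicate 1, naive replicate 3 or EAE replicate 2 (0.0901, 0.0806 and 0.0672, range 0.00779 to 0.18).

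Genes of the amino acid response driven by ATF4 gave 6 rises and no fall among 19 tested, with a median of 0.461, beside 14.2% of all genes called. Mthfd2, a mitochondrial folate enzyme, rose from 110, 146 and 131 to 360, 347 and 323 (1.42 ± 0.14, adjusted p = 8.32e-05). Vldlr, a lipoprotein receptor, rose by 2.09 ± 0.10 (adjusted p = 3.89e-07) and Shmt2, which makes glycine from serine, by 0.69 ± 0.12 (adjusted p = 0.00289). Asns, the asparagine synthetase gene, rose by 1.27 ± 0.21 (adjusted p = 0.00305) and is shown as an example chosen after its values were seen. The other 13 genes of this list did not pass the test. Among them, Atf4 itself differed by 0.141 ± 0.175 (adjusted p = 0.631). Trib3, Sesn2 and Ddit3 were lower, by -0.566, -0.403 and -0.118 (adjusted p = 0.277, 0.315 and 0.819). Of 26 tested genes of amino acid sensing by mTORC1, 2 rose and 1 fell: Sesn1, a leucine-regulated inhibitor family member, fell by 0.82 ± 0.11 (adjusted p = 0.000927), Depdc5 rose by 0.35 ± 0.09 (adjusted p = 0.0202) and Seh1l by 0.32 ± 0.09 (adjusted p = 0.0326). The last 2 calls were lost with both other scalings (Depdc5 0.103 and 0.0547, range 0.00198 to 0.103; Seh1l 0.193 and 0.09, range 0.00359 to 0.193), and that of Seh1l also without naive replicate 1 (0.0694).

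Iron and heme genes gave 7 rises and no fall among 19 tested, beside 9.13% and 5.1% of all genes, with a median of 0.259 against -0.003 for all genes. With no scaling 5 of them rose, and with upper-quartile scaling 6. Alas1, the first enzyme of heme synthesis outside the red cell line, rose from 255, 326 and 316 to 824, 788 and 666 (1.35 ± 0.12, adjusted p = 6.17e-05). Hfe, a partner of the transferrin receptor, rose by 1.13 ± 0.15 (adjusted p = 0.000637) and the transferrin receptor Tfrc by 0.57 ± 0.09 (adjusted p = 0.00191). Steap3, the endosomal reductase that prepares iron for Slc11a2, rose by 0.59 ± 0.12 (adjusted p = 0.00763) and was chosen after its values were seen. Lcn2 and Tfrc are also in the neutrophil and erythroid marker lists. Of 7 zinc and copper genes, 1 rose, the metallothionein Mt1, from 71.0, 88.1 and 91.1 to 444, 567 and 323 (2.38 ± 0.18, adjusted p = 1.48e-05).

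**Figure D3:**
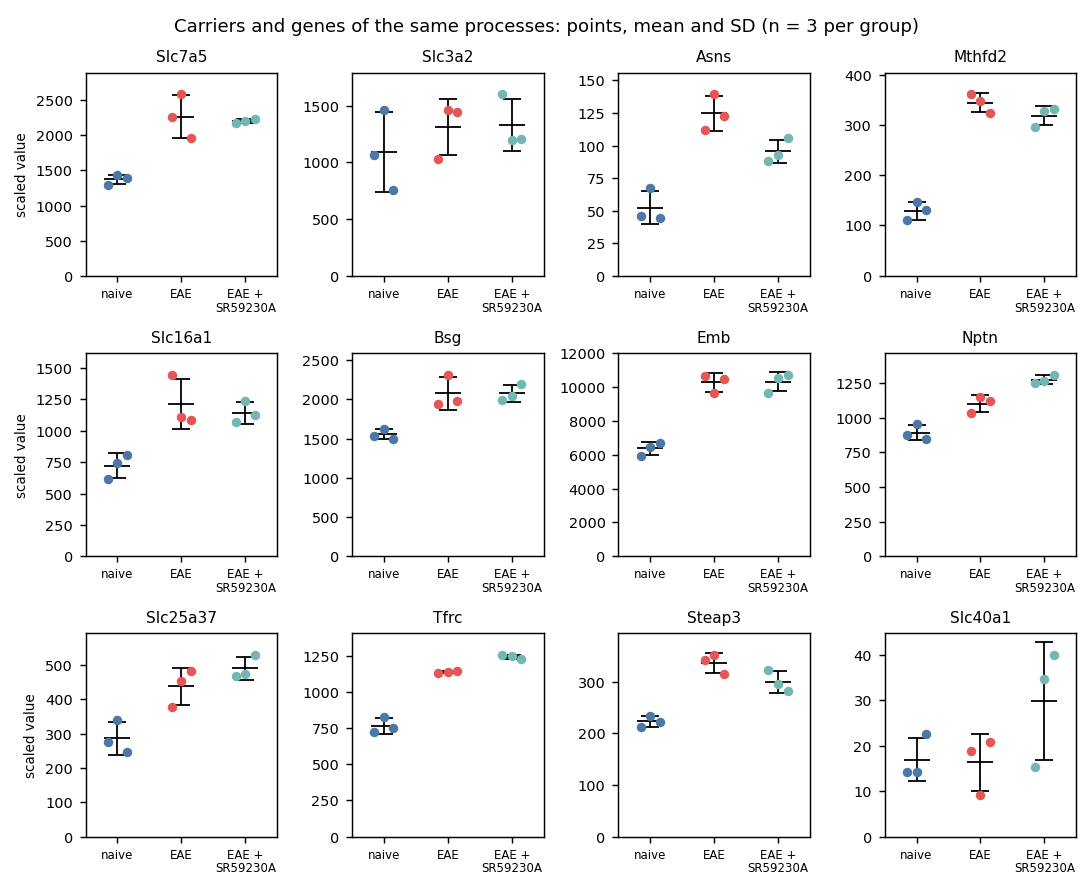
Scaled values (vertical axis, linear from 0, a separate scale in each panel) of 12 genes in the 3 groups: solute carriers beside genes of amino acid supply (Asns, Mthfd2), partner proteins of the Slc16 carriers (Bsg, Emb, Nptn) and iron uptake (Tfrc, Steap3). Points are libraries, and the bars are the mean and SD of 3 libraries. Slc3a2 and Slc40a1 overlap between naive and EAE mice, while the other 10 do not.

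Among 15 ion pumps and kinases of cation-chloride carriers, 2 fell. These were the calcium pumps Atp2a3 and Atp2b4, which fell by 0.37 ± 0.09 and 0.37 ± 0.10 (adjusted p = 0.016 and 0.0279), the latter call being lost with no scaling (0.0527) and without naive replicate 1 (0.0654, range 0.00524 to 0.0654). Of 21 genes of the first steps of sugar use, 3 rose and 1 fell: Txnip, which restrains glucose uptake, fell by 1.10 ± 0.18 (adjusted p = 0.00284), and the hexokinases Hk2 and Hk3 rose by 0.51 ± 0.10 and 0.63 ± 0.14 (adjusted p = 0.00655 and 0.0124). With no scaling, and also with upper-quartile scaling, 2 of these 21 genes rose and 1 fell. Of 27 transporter genes with other symbols, 5 rose and 3 fell. With no scaling 1 rose and 2 fell, and with upper-quartile scaling 2 rose and 3 fell. Spns2, a sphingosine 1-phosphate exporter, fell by 0.63 ± 0.10 (adjusted p = 0.00156). Mfsd2b, which exports the same lipid from red cells and platelets, rose by 0.68 ± 0.14 (adjusted p = 0.0088), and the mitochondrial serine carrier Sfxn1 by 0.40 ± 0.10 (adjusted p = 0.0182), a call lost with no scaling (0.116, range 0.00253 to 0.116).

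Treatment of immunized mice with SR59230A gave no call among the 209 carriers against untreated EAE mice. The lowest adjusted p of a member was 0.998, and 6 members (2.87%) had an unadjusted p under 0.05, beside 3.87% of all genes. Over all genes the same test called 1 gene (0.00768%), the carbonic anhydrase Car1, which is no carrier and one of the erythroid markers and which rose by 1.32 ± 0.10 (adjusted p = 0.000516). Groups of 33 members did not overlap (15.8%, beside 16.2% of all genes), 16 higher and 17 lower with treatment (8.46% and 7.71% of all genes), and the median difference was 0.006, beside 0.01 for all genes. The 95% interval of the difference reached a median of 0.35 to either side of the estimate on the log2 scale. It lay within 0.5 of 0 for 116 members and within 1 of 0 for 175, so the remaining 34 intervals allow a change of 2-fold or more. For the 38 carriers that changed in EAE, the differences with treatment ran from -0.531 (Slc7a11) to 0.832 (Slc35d3), and 23 intervals lay within 0.5 of 0 and 32 within 1.

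**Figure D4:**
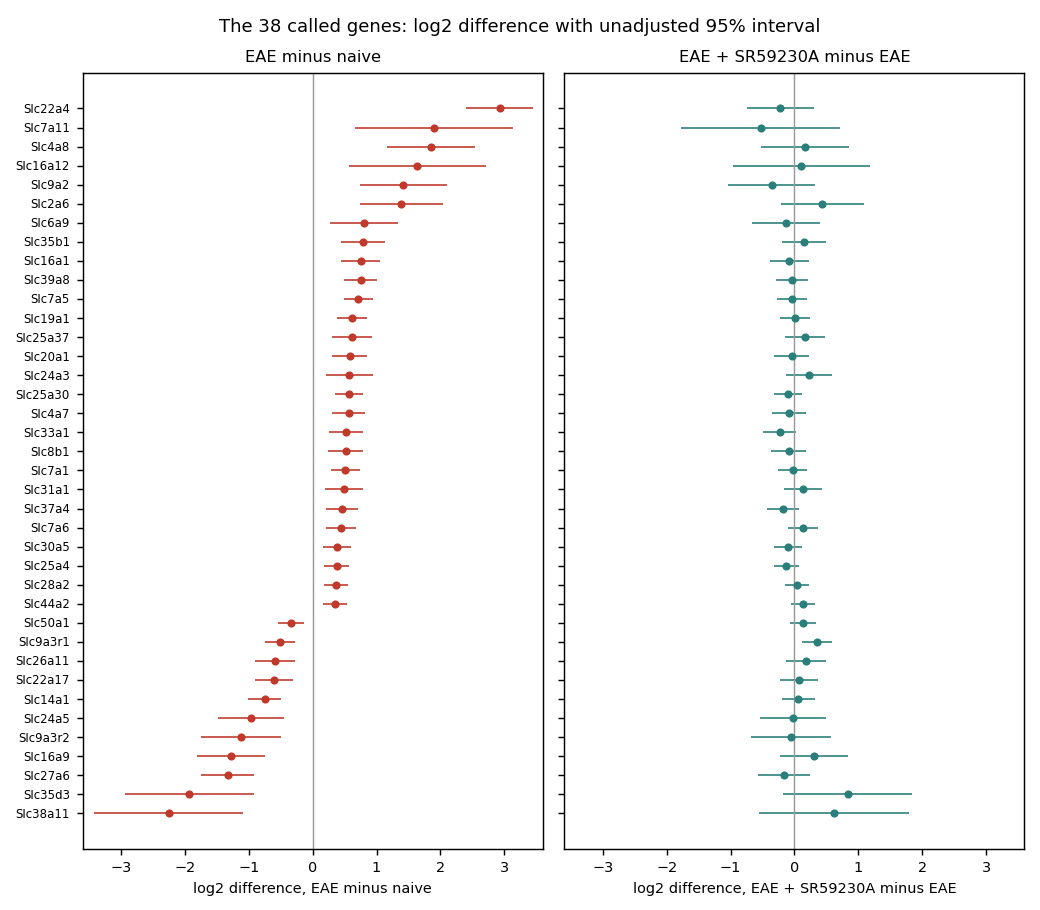
Log2 difference with its unadjusted 95% interval (horizontal axes) for the 38 solute carrier genes called in EAE against naive mice, in that comparison (left) and in SR59230A-treated EAE against EAE (right). Each row is a gene, ordered by the left panel, which the choice of genes keeps away from 0. On the right, 37 of the 38 intervals include 0 and that of Slc9a3r1 does not. The panels share the EAE libraries.

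Among the carriers called in EAE, the treated libraries of Slc22a4, Slc4a8 and Slc7a5 were near the EAE ones. Slc22a4 differed between treated and untreated EAE by -0.22 ± 0.24 (interval -0.75 to 0.30), Slc4a8 by 0.17 ± 0.32 (-0.53 to 0.86) and Slc7a5 by -0.03 ± 0.11 (-0.27 to 0.20). The interval was wide for low genes such as Slc7a11, at -0.53 ± 0.57 (-1.77 to 0.71). Slc2a6 was 0.43 ± 0.30 higher with treatment, without overlap of the libraries (-0.22 to 1.08). The 2 carriers with the largest falls in EAE, both low genes, were higher with treatment. Both comparisons use the EAE libraries, so choosing these genes by their fall favours a higher value with treatment. Slc38a11 differed by 0.617 ± 0.535 (-0.553 to 1.788), without overlap of the libraries, and Slc35d3 by 0.832, with overlap. None of these differences passed the test.

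The 6 carriers with an unadjusted p under 0.05 are named with values seen, and each has an adjusted p of 0.998. Slc25a21, the mitochondrial oxodicarboxylate carrier, read 7.22, 1.02 and 7.30 in EAE and 10.2, 20.4 and 15.6 with treatment (1.62 ± 0.63, unadjusted p = 0.0256), values near the filter. Slc4a1, the red cell anion exchanger, read 45.1, 48.1 and 14.6 in EAE and 48.8, 84.6 and 65.5 with treatment (1.01 ± 0.42, unadjusted p = 0.0351), without overlap. The erythroid marker sum was also higher in each treated library (5703 to 6159) than in EAE (4556 to 4871), and its part in the Slc4a1 values was not tested. Slc9a3r1 read 507, 526 and 468 with treatment, between the naive and the EAE libraries, a difference from EAE of 0.35 ± 0.11 (unadjusted p = 0.00728). The endosomal proton exchanger Slc9a7 was higher by 0.29 ± 0.11 (unadjusted p = 0.0252). Slc7a4, a relative of the cationic amino acid transporters, was lower (-0.44 ± 0.18, unadjusted p = 0.0285), as was the monoamine carrier Slc22a3 (-0.24 ± 0.10, unadjusted p = 0.0316), which was at 1265, 1280 and 1421 with treatment.

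Treated EAE mice against naive mice gave 34 calls among the carriers (16.3%, beside 14.8% of all genes), 25 rising and 9 falling (10.2% and 4.61% of all genes), and 68 had an unadjusted p under 0.05 (beside 31.1% of all genes). For 100 members the groups did not overlap (47.8%, beside 48.8% of all genes), 61 higher (26.4% of all genes) and 39 lower (22.4%). This comparison shares the naive libraries with that of EAE against naive and the treated libraries with that of treated against untreated EAE. By class, 4 amino acid carriers rose and 1 fell, 1 sugar carrier rose, 4 metal carriers rose, 6 ion carriers rose and 2 fell, and 3 mitochondrial carriers rose. Of the nucleotide class 2 rose, and of the organic acid and vitamin class 5 rose and 5 fell. Slc22a4 was 2.71 ± 0.24 higher (adjusted p = 5.54e-05), Slc4a8 2.02 ± 0.32 (adjusted p = 0.00205) and Slc2a6 1.82 ± 0.30 (adjusted p = 0.00254), and Slc27a6 was lower by -1.50 ± 0.19 (adjusted p = 0.000538). With upper-quartile scaling 18 carriers rose and 15 fell (54.5% rises against 73.5% here), with no scaling 10 rose and 8 fell (55.6%), and with the chemosensory term none passed (21 at an unadjusted p under 0.05).

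The 7 carriers called here and not in EAE against naive had log2 differences from -0.816 (Slc16a11) to 0.43 (Slc11a2). Slc7a4 read 151, 127 and 149 in naive mice and 93.6, 82.5 and 81.1 in treated EAE, a fall of -0.73 ± 0.18 (adjusted p = 0.0191). Slc16a11, a monocarboxylate carrier, fell by 0.82 ± 0.24 (adjusted p = 0.0427) and the chloride cotransporter Slc12a2 by 0.41 ± 0.12 (adjusted p = 0.0384). Slc43a1, an importer of large neutral amino acids, rose by 0.42 ± 0.11 (adjusted p = 0.0227), the endosomal iron transporter Slc11a2 by 0.43 ± 0.12 (adjusted p = 0.0382), the magnesium transporter Slc41a1 by 0.38 ± 0.10 (adjusted p = 0.0311) and the mitochondrial phosphate carrier Slc25a3 by 0.34 ± 0.10 (adjusted p = 0.0468). The treated-against-EAE differences of all 7 missed the threshold, so a difference from EAE is not shown. Leaving out naive replicate 1 ended the calls of Slc43a1 (0.052), Slc12a2 (0.0889), Slc11a2 (0.097), Slc25a3 (0.073) and Slc16a11 (0.0846). Leaving out treated replicate 2 ended those of Slc12a2 (0.068), Slc11a2 (0.0872), Slc25a3 (0.0603) and Slc16a11 (0.0763). Leaving out treated replicate 3 ended those of Slc41a1 (0.0587), Slc12a2 (0.0559), Slc11a2 (0.0521), Slc25a3 (0.0684) and Slc16a11 (0.068). The Slc12a2 call was also lost without naive replicate 3 (0.0703), and the Slc25a3 call without naive replicate 3 (0.0823) or treated replicate 1 (0.0663). Over the same settings as above, the highest adjusted p was 0.0467 for Slc7a4 (lowest 0.00265), 0.193 for Slc43a1 (0.00276), 0.0889 for Slc12a2 (0.00794), 0.24 for Slc11a2 (0.00786), 0.173 for Slc41a1 (0.00292), 0.228 for Slc25a3 (0.00636) and 0.0846 for Slc16a11 (0.00593).

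At the edge of the filter, the third-highest deposited value was 9 for Slc22a13, Slc36a2 and Slc6a4, which were left out, and 10 for Slc35a4 and 12 for Slc30a1, which were kept. Of the members, 17 were at 10 or more in 4 to 8 libraries and 3 in exactly 3.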

How the data were processed

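RNA of sorted LSK bone marrow cells from 9 mice, 3 in each of 3 groups named in the labels, was prepared with the RNeasy micro kit, per the labels' protocols. The values that the authors deposited, whole numbers for 14940 genes, are a score and not read counts. The submitters' processing notes name DESeq2 with no version or role. No aligner, genome build or annotation is given in the sources used here, and library depth and the counting error of a value are unknown.

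Among genes whose mean was 500 or more, 2 of the 8 principal components on the natural log scale had only 6.7e-05% and 5.94e-05% of the variance, beside 2.44% to 55.3% for the other 6. Read counts do not show such directions. They lay 99.4% and 99.7% within the groups, so the spread between replicates may be understated, and adjusted p-values may be too small.

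Values were divided by median-of-ratios factors (0.9005 to 1.107), genes at 10 or more in 3 libraries were retained, and differences were taken on the log2(value + 1) scale, where those of low genes come out too small. Limma-trend (limma 3.58.1, R 4.3.3) was fitted over all 9 libraries with group coefficients and these 2 directions as terms (4 residual degrees of freedom, 7.52 from the prior), with Benjamini-Hochberg adjustment over 13018 genes, 2-sided, and a threshold of 0.05. A fold is the ratio of group means of scaled values. The script was tested on simulated data. The mice are separate per the labels, but nothing says whether their libraries were prepared together.

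The members, the classes and the lists were chosen with earlier results of these data known. The class of carriers that are not transporters was made after the rows had been read, and some Slc9 genes were then moved to the ions. Named were landmark carriers, up to 4 rises and 4 falls in each class for EAE against naive by size, up to 2 and 2 for treated against naive among carriers not called there, and up to 3 genes of each list by p, with exceptions said where they stand; a few genes that this rule names are not reported here. Promoter windows came from RefSeq, where 156 of the 209 members had one. Alternatives were other scalings, pseudocounts, filters, models and leaving out each library.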

Additional observations from a re-analysis of the deposited data

How the results depend on the processing

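Of the 38 carriers called in EAE against naive mice, 24 were called in every other scaling, pseudocount, filter, model and left-out library that tested them, the chemosensory term aside, and 15 of the 34 called in treated EAE against naive were. No call changed direction. Treated against untreated EAE gave 0 calls in every alternative, with 3 to 18 members at an unadjusted p under 0.05. In EAE against naive, the count of called carriers was 60 with group coefficients alone (28.7%, beside 26.8% of all genes) and 2 with the chemosensory term (0.957%, beside 0.868%), which was chosen after seeing the data. In treated EAE against naive it was 66 with group coefficients alone (31.6%, beside 30.1% of all genes), 73 with only the 6 libraries compared (34.9%, beside 34.4%), 18 with no scaling (8.61%, beside 8.24%) and 0 with the chemosensory term (beside 0.0999%). Leaving out one library at a time gave 31 to 49 calls in EAE against naive and 26 to 57 in treated EAE against naive, the highest without EAE replicate 3 (27.3%, beside 25.6% of all genes). Those fits held 1 missing direction in place of 2, and the fits on 6 libraries and with group coefficients alone held none. With no scaling 12 of the 38 calls and 16 of the 34 were lost, and the median of all genes in treated EAE against naive moved by -0.117. With upper-quartile scaling 7 calls were lost in each comparison, and the class medians of ions, metals and mitochondrial carriers in EAE against naive were -0.045, -0.048 and -0.016, against 0.03, 0.025 and 0.059. The cause of these differences was not tested. No paired analysis was possible because the numbers of the replicates were given by accession order and only name the samples. Depth could not be recovered, so precision at low values such as those of Slc7a11 and Slc38a11 is unknown.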
